A study of Sus scrofa with 8 samples.

Results

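The genes described here are YAP1 and WWTR1 (also named TAZ), the coactivators at the end of the Hippo pathway, the TEAD1, TEAD2, TEAD3 and TEAD4 genes for the DNA-binding factors that carry them, the LIM protein gene AJUBA, and the target genes CCN1 (CYR61), CCN2 (CTGF) and THBS1. They were taken by symbol from the count table, and all 10 were found among its 24358 genes and among the 13250 genes that were tested after removal of low counts. RNA-seq was done on 4 libraries of porcine induced pluripotent stem cells (piPSCs), in order to see how overexpression of IRF-1 changes transcript levels.

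Both groups were DOX-hLIF-2i piPSCs. These came from porcine embryonic fibroblasts (PEFs) with an OCT4-tdTomato reporter and the lentiviral vectors FUW-OSKM and FUW-M2rtTA, and were kept in medium with doxycycline, human LIF, porcine LIF, CHIR99021 (a GSK3 inhibitor) and PD0325901 (a MEK inhibitor). The growth protocol in the sample labels instead names an LCDMV culture system. In the IRF-1 overexpressing cells (replicates 1 and 3) the piggyBac construct was PB-CAG-IRF1-Flag, in which the CAG promoter drives a Flag-tagged IRF1. In the controls (replicates 6 and 8) it was the empty PB-CAG-Flag. Puromycin selection was used for both, and self-renewal of these cells depends on the doxycycline-driven factors. Which of the established lines was used is not stated, and nothing states that the replicates were separate cultures. The p-values thus weigh the group difference only against the spread between these libraries. That spread exceeded counting error, and its source was not tested. The genotype in the labels is overexpression for all 4 libraries, and the groups here follow the study's own assignment of the sample titles. Feeder cells had been removed by letting them attach before the RNA was extracted.

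In the Hippo pathway, the MST and LATS kinases phosphorylate YAP and TAZ and keep them out of the nucleus. When the kinases are less active, as in spread cells under tension, YAP and TAZ enter the nucleus, bind TEAD factors and switch on genes such as CCN1, CCN2 and THBS1. In early mammalian embryos, TEAD4 with YAP turns on trophectoderm genes in outer cells. YAP activity is set largely by phosphorylation and location, which transcript counts do not measure.

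The libraries held 24923319 and 20858333 counts (IRF-1 overexpressing replicates 1 and 3) and 15925429 and 17097669 counts (control replicates 6 and 8). Values are given as CPM (counts relative to the library's total) after TMM scaling of the libraries. Calls required an adjusted p below 0.05 together with a log2 fold change not smaller than 1 in size, by edgeR's quasi-likelihood test and Benjamini-Hochberg adjustment over all 13250 genes. With 2 libraries against 2, an exact two-sided permutation test of 1 gene cannot give a p below 0.333, so the adjusted p values lean on the spread that is shared across genes. IRF1 itself was higher in the assigned group, with a log2 fold change of 6.46 (edgeR, adjusted p = 3.65e-05). Of the pluripotent stem cell markers, LIN28A (164 and 186 CPM against 506 and 382) and DNMT3B (1035 and 1006 against 694 and 997) were expressed in every library. NANOG had 8 and 11 counts against 5 and 9, and PRDM14 had 0 counts in all 4 libraries.

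Of the 10 genes, 6 fell past the threshold in the IRF-1 overexpressing cells, namely TEAD2, TEAD3, TEAD4, AJUBA, CCN2 and THBS1, while 10.6% of all genes tested were called lower. None was called higher (0 of 10, with edgeR), against 8.61% of all genes. No member had a positive change at an unadjusted p under 0.05 either (0 of 10), and DESeq2 and limma-voom also called 0 higher. In 8 of the 10 genes both overexpressing libraries lay below both controls, which held for 33.8% of all genes tested, and in 0 genes they lay above both, which held for 34.8%. The groups overlapped for WWTR1 and CCN1. The median log2 fold change of the 10 genes was -2.58, or -1.19 without control replicate 6, beside 0.00 over all genes tested. In these bulk libraries, fewer cells that express a gene and less RNA per cell cannot be told apart.

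**Figure D1:**
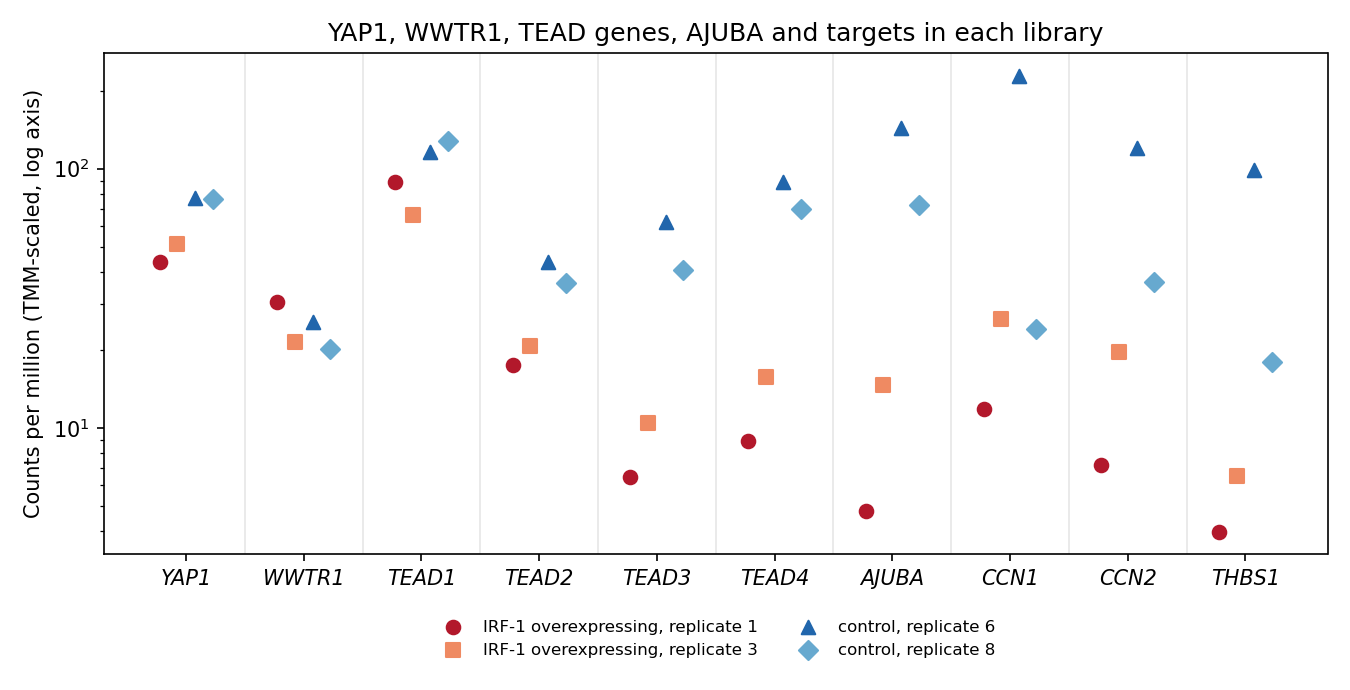
Level of each gene in CPM (TMM-scaled, logarithmic axis) in each of the 4 libraries, with 1 point per library. YAP1 ran from 43.7 to 77.3 CPM and WWTR1 from 20.2 to 30.6, whereas AJUBA ran from 4.79 to 144 and CCN1 from 11.9 to 228, with control replicate 8 of CCN1 beside the overexpressing libraries.

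Neither coactivator gene was called, though YAP1 was lower in the overexpressing cells. YAP1 (ENSSSCG00000031429, Sscrofa11.1 chromosome 9, 32811231 to 32925606, plus strand) had 43.7 and 51.1 CPM in the overexpressing replicates 1 and 3, and 77.3 and 76.2 CPM in control replicates 6 and 8. Both overexpressing libraries lay below both controls, and the controls were nearly equal. The log2 fold change of -0.70 (standard error 0.15) passed the p threshold (edgeR, adjusted p = 0.0106) but was smaller than the minimum of 1, so YAP1 was not called. Its adjusted p was 0.147 without overexpressing replicate 1. WWTR1 (ENSSSCG00000011704, chromosome 13, 89746016 to 89889187, minus strand), which encodes the related coactivator TAZ, had 30.6 and 21.5 CPM against 25.5 and 20.2 CPM. The groups overlapped, and the log2 fold change was 0.19 (standard error 0.23, edgeR, adjusted p = 0.581), turning to -0.08 without overexpressing replicate 1.

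The level of YAP1 against WWTR1 depends on the scale. In TPM (counts per exon length, scaled to the same sum in each library), YAP1 was at 0.305 and 0.509 of WWTR1 in the overexpressing libraries and at 0.648 and 0.805 in the controls. In CPM without length, YAP1 was 1.43 and 2.38 times WWTR1 in the overexpressing libraries and 3.03 and 3.77 times in the controls. WWTR1 is annotated with 1164 exon bases and YAP1 with 5443, so the order of the pair rests on the annotated lengths. The ratio of YAP1 to WWTR1 was lower in both overexpressing libraries than in both controls, and since the scales differ by the lengths alone, this comparison is the same on both. The sum of both genes was 82.6 and 67.9 TPM in the overexpressing libraries and 91.0 and 85.4 TPM in the controls. These ratios were not tested.

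All 4 TEAD genes were lower in both overexpressing libraries, by unequal amounts. TEAD1 (ENSSSCG00000013399, chromosome 2, 46400066 to 46670472, minus strand) had 88.6 and 66.5 CPM in the overexpressing cells and 116 and 128 CPM in the controls. TEAD1 was not called, since its log2 fold change of -0.66 (standard error 0.17, edgeR, adjusted p = 0.0256) was under the minimum, and its adjusted p was 0.228 without overexpressing replicate 3. TEAD2 (ENSSSCG00000025568, chromosome 6, 54448188 to 54462285, minus strand) had 17.4 and 20.6 CPM against 43.6 and 36.3 CPM. This was a log2 fold change of -1.07 (standard error 0.19, edgeR, adjusted p = 0.00501), just past the minimum. The TEAD2 call was lost without overexpressing replicate 1 (-0.94), without control replicate 6 (-0.93) and when the change was tested against the minimum with glmTreat (adjusted p = 0.773). Its exons share 1143 bases with those of CD37 on the opposite strand, and CD37 had between 11 and 30 counts in a library.

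TEAD3 and TEAD4 differed more between the groups. TEAD3 (ENSSSCG00000001544, chromosome 7, 31337890 to 31351452, minus strand) had 6.48 and 10.4 CPM in the overexpressing libraries and 62.5 and 40.6 CPM in the controls. It fell by 2.61 on the log2 scale (standard error 0.30, edgeR, adjusted p = 0.00101). TEAD4 (ENSSSCG00000000736, chromosome 5, 67124726 to 67194381, minus strand), the TEAD factor known for its part in the trophectoderm, had 8.94 and 15.8 CPM against 88.5 and 69.7 CPM. It fell by 2.68 (standard error 0.28, edgeR, adjusted p = 0.000735). For both genes each overexpressing library was far below each control. With each library left out in turn, the log2 fold change stayed between -2.98 and -2.27 for TEAD3 and between -3.14 and -2.31 for TEAD4.

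Per exon length, the summed TEAD level was 69.2 and 73.3 TPM in the overexpressing libraries and 250 and 215 TPM in the controls. In CPM without length the sum was 121 and 113 against 311 and 275. The make-up of the family differed as well. TEAD3 made up 48.3% and 39.4% of TEAD TPM in the controls and 17.3% and 26.6% in the overexpressing libraries, and TEAD1 made up 21.2% and 29.4% against 55.8% and 40.1%. Thus TEAD3 was the most abundant TEAD transcript per length in both controls, and TEAD1 in both overexpressing libraries. TEAD3 is annotated with only 1305 exon bases, and in CPM it made up 20.1% and 14.8% of the controls' sum and 5.34% and 9.21% of that of the overexpressing libraries. TEAD4 took 14.9% and 14.8% of TEAD TPM in the controls and 5.20% and 8.78% in the overexpressing libraries.

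Within a library, the log2 ratio of TEAD3 to TEAD1 in CPM was -0.89 and -1.66 in the controls and -3.77 and -2.67 in the overexpressing libraries. That of TEAD4 to TEAD1 was -0.39 and -0.88 in the controls and -3.31 and -2.08 in the overexpressing libraries. For TEAD2 to TEAD1 the values were -1.41 and -1.82 against -2.35 and -1.69, which overlapped. These ratios do not depend on the scaling between libraries, so TEAD3 and TEAD4 were lower relative to TEAD1 as well as in CPM.

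**Figure D2:**
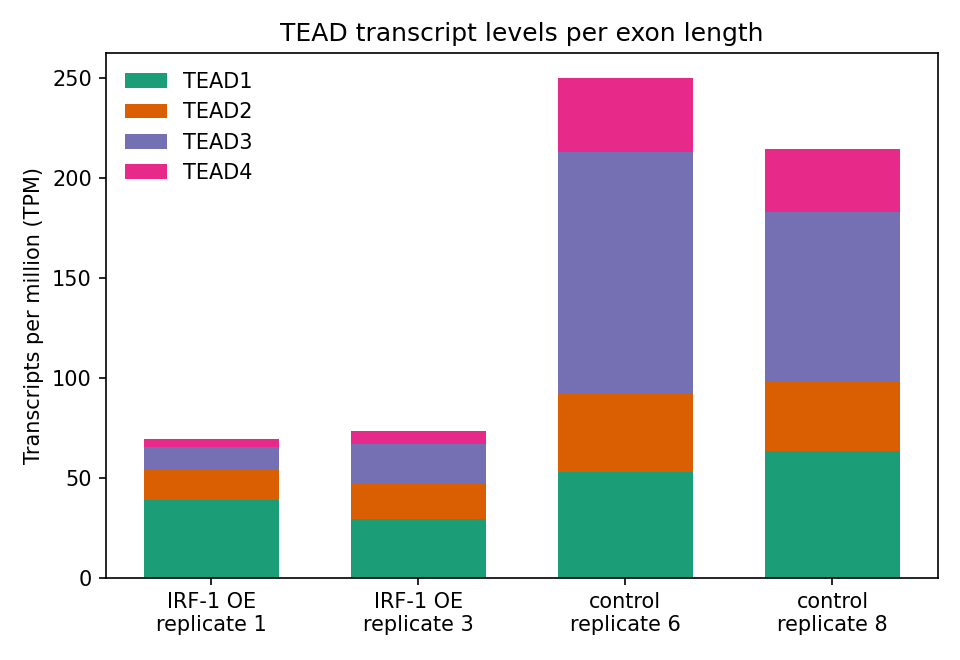
TPM of the TEAD genes in each library, stacked, from the deposited counts and exon lengths (OE, overexpressing). The sums were 69.2 and 73.3 TPM in the IRF-1 overexpressing libraries and 250 and 215 TPM in the controls, and TEAD3 was the largest share in both controls.

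AJUBA encodes a LIM-domain scaffold of cell junctions that binds LATS kinases and restrains them, and it is also listed among YAP targets. The gene (ENSSSCG00000029201, chromosome 7, 76063018 to 76072851, plus strand) had 4.79 and 14.6 CPM in the overexpressing libraries and 144 and 72.7 CPM in the controls. The groups lay far apart, although the replicates of each group also differed, by 3.05-fold between the overexpressing libraries and 1.98-fold between the controls. AJUBA fell by 3.49 on the log2 scale (standard error 0.52, edgeR, adjusted p = 0.00259), and leaving out overexpressing replicate 1 gave -2.87, whereas leaving out overexpressing replicate 3 gave -4.49.

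The target genes CCN1, CCN2 and THBS1 were marked by a wide gap between the 2 controls. CCN1 (ENSSSCG00000006940, chromosome 4, 130389473 to 130395163, minus strand) encodes a secreted matrix protein that binds integrins and is a classical direct target of YAP and TEAD. It had 11.9 and 26.4 CPM in the overexpressing libraries, 228 CPM in control replicate 6 and 24.0 CPM in control replicate 8. Control replicate 8 thus lay between the overexpressing libraries, and only control replicate 6 was high. The log2 fold change of -2.72 (standard error 0.88) was not called (edgeR, adjusted p = 0.0527). It was -0.33 without control replicate 6 (adjusted p = 0.554) and -3.57 without control replicate 8 (adjusted p = 2.69e-05). CCN1 was also called lower without overexpressing replicate 3 (-3.40, adjusted p = 0.0410). With all 4 libraries, the adjusted p ran from 1.27e-08 with no filter on low counts to 0.197 with glmTreat, and it was 0.140 with DESeq2 and 0.0446 with library size alone.

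CCN2 (ENSSSCG00000004192, chromosome 1, 31673798 to 31680169, plus strand) encodes connective tissue growth factor, another secreted target of YAP and TEAD. Its level was 7.21 and 19.6 CPM in the overexpressing libraries, 120 CPM in control replicate 6 and 36.4 CPM in control replicate 8. Both controls were above both overexpressing libraries. CCN2 was called lower at a log2 fold change of -2.55 (standard error 0.61, edgeR, adjusted p = 0.0171). The value was -1.45 without control replicate 6, -3.17 without control replicate 8 and -3.43 without overexpressing replicate 3, and the call was lost with glmTreat (adjusted p = 0.0799, within a range of 9.49e-11 to 0.0799 over the settings with all 4 libraries). THBS1 (ENSSSCG00000004789, chromosome 1, 131728784 to 131746115, minus strand) encodes thrombospondin-1, a matrix glycoprotein that can activate latent TGF-beta. It had 3.99 and 6.54 CPM against 98.5 CPM in control replicate 6 and 18.0 CPM in control replicate 8. Here too both controls were higher, at a log2 fold change of -3.47 (standard error 0.72, edgeR, adjusted p = 0.00997). Leaving out control replicate 6 gave -1.78, and leaving out control replicate 8 gave -4.23.

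Control replicate 6 exceeded control replicate 8 by 9.50-fold for CCN1, 5.47-fold for THBS1 and 3.30-fold for CCN2. The 95% Clopper-Pearson intervals of these log2 ratios were 3.10 to 3.40, 2.28 to 2.63 and 1.59 to 1.85, and they cover counting error only. Among all genes tested, 0.621% were at least as far apart between the controls as CCN1, 0.992% as THBS1 and 2.17% as CCN2. The median gap of all genes was 0.26 on the log2 scale, and 95% of genes lay within 1.16. The other members were closer, with 1.98-fold for AJUBA (7.88% of genes at least as far apart), 1.54-fold for TEAD3, 1.27-fold for TEAD4, 1.26-fold for WWTR1, 1.20-fold for TEAD2, 1.10-fold for TEAD1 and 1.01-fold for YAP1. Control replicate 6 was the higher one for 9 of the 10 genes, all but TEAD1. Thus TEAD3 and TEAD4 were high in both controls, whereas the targets were highest in 1 of them.

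Between the overexpressing libraries, replicate 1 had the lower value for 8 of the 10 genes, all but WWTR1 and TEAD1. The gaps were 3.05-fold for AJUBA, 2.72-fold for CCN2, 2.22-fold for CCN1 and 1.77-fold for TEAD4. As far apart between these libraries were 1.63% of all genes for AJUBA and 2.30% for CCN2. The median gap over all genes was 0.18 on the log2 scale.

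The ratio of CCN1 to CCN2 in TPM was 1.88 and 1.54 in the overexpressing libraries, 2.17 in control replicate 6 and 0.754 in control replicate 8. The targets thus did not keep 1 proportion even between the controls. The number of the 10 genes called lower was 5 without control replicate 6 (TEAD2 lost) and 7 without control replicate 8 (CCN1 gained). It was 5 without overexpressing replicate 1 (TEAD2 lost) and 7 without overexpressing replicate 3 (CCN1 gained).

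Per exon length, AJUBA had the highest mean level of the 10 genes in the controls, 116 ± 47.9 TPM (SD, n = 2), followed by TEAD3 with 103 ± 25.5 TPM. CCN1 (65.9 ± 74.2 TPM), TEAD1 (58.1 ± 7.20) and WWTR1 (51.3 ± 5.61) came next, and the library values of each of these neighbours overlapped. Lower in the controls came TEAD2, YAP1, CCN2, TEAD4 and THBS1, between 37.2 and 25.5 TPM, again with overlap between neighbours. In the overexpressing cells the order was led by WWTR1 (54.1 ± 12.9 TPM), TEAD1 (34.0 ± 6.53) and YAP1 (21.1 ± 2.53), whose library values did not overlap. TEAD2, TEAD3, AJUBA, CCN1, CCN2 and TEAD4 followed with overlapping neighbours from 16.5 down to 5.01 TPM, and THBS1 was lowest with 2.20 ± 0.773 TPM. The annotated lengths enter these places, and in control replicate 8 TEAD3 (84.6 TPM) exceeded AJUBA (81.7 TPM).

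For the profiles most like those of the CCN genes, 9129 other genes with a symbol and a mean of at least 5 CPM were compared by the root mean square distance of their centred log2 CPM over the 4 libraries. The nearest to CCN1 was NR4A1 (distance 0.44), which encodes an orphan nuclear receptor of the immediate-early class. It had 5.72 and 10.1 CPM in the overexpressing libraries, 157 CPM in control replicate 6 and 20.4 CPM in control replicate 8. Next came THBS1 (0.58), CCN2 (0.58), GADD45B (0.63) and RRAS (0.64). The nearest to CCN2 were TCIM (0.23), FGFBP3 (0.31), PRSS23 (0.31), EMP3 (0.32) and ID4 (0.33). With 4 libraries, such distances only describe these profiles.

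The wider set of YAP and TEAD target genes was read next. In a list known as a conserved YAP signature, 18 of the 20 genes found were tested, with a median log2 fold change of -1.75. Past the threshold, 10 were lower (55.6%, against 10.6% of all genes) and 1 was higher (5.56%, against 8.61%). CCN1 and CCN2 are on this list. PTPN14, a phosphatase gene whose product holds YAP in the cytoplasm, had 1.09 and 0.913 CPM in the overexpressing libraries and 18.6 and 18.2 CPM in the controls (log2 fold change -4.19, edgeR, adjusted p = 0.000206). MYOF, which encodes the membrane repair protein myoferlin, had 28.5 and 35.0 CPM against 309 and 255 CPM (-3.15, adjusted p = 0.000144). Both genes were clearly separated between the groups and close between the controls. DOCK5 was higher, with 218 and 136 CPM against 46.3 and 72.6 CPM (1.57, edgeR, adjusted p = 0.00544).

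Of the 10 signature genes that fell, 5 had controls within 1.5-fold of each other (MYOF, PTPN14, LATS2, CCDC80 and RBMS3), and 5 had controls more than 2-fold apart (CCN2, AMOTL2, ANKRD1, F3 and NUAK2), all with control replicate 6 higher. This division was made after the values had been seen. F3, the gene for tissue factor, had 1.61 and 1.54 CPM in the overexpressing libraries, 23.8 CPM in control replicate 6 and 6.29 CPM in control replicate 8. ANKRD1 had 9 and 6 counts against 70 and 19. Of the 18 genes tested, 17 were higher in control replicate 6 than in replicate 8, compared with 52.4% of all genes. Without control replicate 6, 8 of the 19 genes then tested were called lower. NUAK2 (-0.96) and ANKRD1 (-1.72, adjusted p = 0.143) were no longer called, CCN2, AMOTL2 (-1.39) and F3 (-1.995) stayed lower by a smaller amount, and the median of the 18 genes was -1.16. ANKRD1 was also not called without either overexpressing library. Without control replicate 8, ANKRD1 was at -3.74 and F3 at -3.90.

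**Figure D3:**
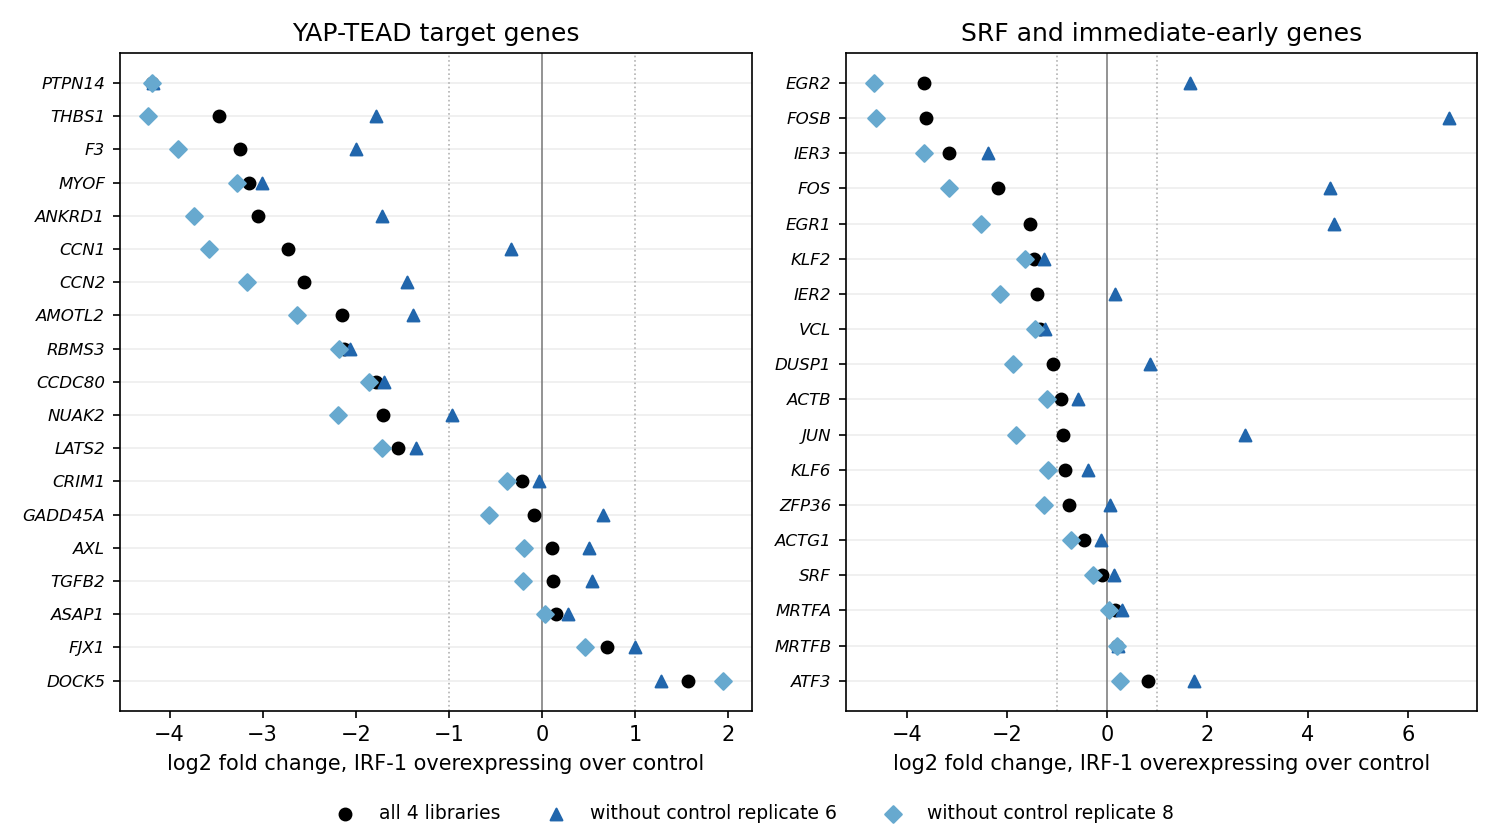
Log2 fold change of IRF-1 overexpressing over control cells for the tested genes of the YAP-TEAD signature with THBS1 (left) and for SRF and immediate-early genes (right), with all 4 libraries and without either control; dotted lines mark the minimum of 1. CCN1 moved from -2.72 to -0.33 without control replicate 6, PTPN14 stayed at -4.18, and FOS moved from -2.17 to 4.44. FOSB had 0 counts in control replicate 8, so its value without control replicate 6 depends on the prior count.

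A second list of known YAP targets, which holds AJUBA and THBS1, had 14 tested genes. Of these, 7 were lower (50%, against 10.6% of all genes) and 2 higher (14.3%, against 8.61%). The median was -0.64 (-0.97 without control replicate 8 and -1.09 with a filter of 1 CPM). Without overexpressing replicate 1, 4 were lower and 1 higher, and DESeq2 called 1 higher. BCL2L1, a survival gene, had 29.3 and 36.1 CPM against 126 and 76.9 CPM (log2 fold change -1.63, edgeR, adjusted p = 0.0026). FSTL1, which encodes a secreted glycoprotein, had 480 and 535 CPM against 1020 and 1147 CPM (-1.09, adjusted p = 0.00124), and was not called without control replicate 8 (-0.9977). INHBA, the activin A subunit gene, was higher, with 7.49 and 8.65 CPM against 2.18 and 0.572 CPM (2.57, and 3.80 without control replicate 6). The other higher gene, FGF1, had 34 and 16 counts against 3 and 6 (edgeR, adjusted p = 0.04997) and was not called by DESeq2 or with any library left out. MYC was lower with 27 and 39 counts against 152 and 72 (-2.23), a call lost without overexpressing replicate 1 (adjusted p = 0.0811) or control replicate 6 (-1.48, adjusted p = 0.0511). The proliferation gene BIRC5 had 78.1 and 101 CPM against 101 and 98.8 CPM and was not called. CCND1 was not called with 148 and 125 CPM against 139 and 55.3 CPM, but had a log2 fold change of 1.30 without control replicate 6.

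A list of SRF and immediate-early genes was also read, because CCN1 is known to answer to serum and SRF as well. The median gap between the controls on this list was 1.29 on the log2 scale. The gaps were unequal, with 7.6 for FOS and 7.0 for EGR1 but 0.44 for SRF, 0.20 for VCL and 0.02 for MRTFB. Of 18 tested SRF and immediate-early genes, 18 were higher in control replicate 6 than in control replicate 8. FOS had 658 and 1162 counts in the overexpressing libraries, 5777 in control replicate 6 and 33 in control replicate 8. EGR1 had 1375 and 2627 counts against 8151 and 69, and JUN had 1968 and 1135 against 3693 and 174. For these 3 genes the overexpressing libraries lay between the controls, and none was called with all 4 libraries. On the whole list 2 genes were lower (IER3, at -3.16 or -2.38 without control replicate 6, and VCL) and 0 higher with edgeR and with DESeq2, and the median was -1.003. Without control replicate 6, 2 were lower and 5 higher (FOS, FOSB, JUN, EGR1 and ATF3), and the median was 0.18. Without control replicate 8, 13 were lower and 0 higher. Without control replicate 6 the log2 fold change was 4.44 for FOS, 4.52 for EGR1 and 2.75 for JUN, and without control replicate 8 it was -3.16, -2.52 and -1.81. With control replicate 6 left out, CCN1 was at -0.33, CCN2 at -1.45 and THBS1 at -1.78, as given above. The part of the gap between the controls in SRF and immediate-early genes in the values of CCN1, CCN2 and THBS1 was not tested.

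Among Hippo kinases and core scaffolds, 4 of 31 tested genes were lower and 1 higher. The median log2 fold change was -0.07, or -0.19 without control replicate 6 or overexpressing replicate 1, and -0.002 without overexpressing replicate 3. The share called lower was 12.9%, near the 10.6% of all genes. LATS1 and LATS2 encode the kinases that phosphorylate YAP and TAZ. LATS1 had 51.8 and 46.5 CPM in the overexpressing libraries against 30.0 and 37.4 CPM, which was not called (log2 fold change 0.54), and LATS2 had 19.9 and 19.1 CPM against 64.5 and 49.6 CPM. LATS2, itself a YAP target, fell by 1.55 on the log2 scale (edgeR, adjusted p = 0.00109). WWC2 (-2.11), NUAK1 (-1.90) and WWC1 (-1.27) also fell, and STK38L, which encodes a kinase related to LATS, was higher (1.29, edgeR, adjusted p = 0.0049). The upstream genes NF2 (0.08), STK3 (-0.30), STK4 (0.14) and SAV1 (0.57) were not called.

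Of 25 tested junction and polarity genes that regulate YAP, 7 were lower and 2 higher, with a median of -0.55. The share lower was 28%, against 10.6% of all genes, and the share higher was 8%, near the 8.61% of all genes. PTPN14 and AMOTL2 are also on the target list. CDH1, the E-cadherin gene, had 25.4 and 74.0 CPM against 240 and 232 CPM (log2 fold change -2.25, edgeR, adjusted p = 0.00676), or -1.66 when overexpressing replicate 1 was left out and -3.21 when replicate 3 was. TJP1, the gene for the tight junction protein ZO-1, had 185 and 191 CPM against 695 and 514 CPM (-1.68, adjusted p = 0.000672). CRB1 had 132 and 44 counts against 6 and 0 and was not called without overexpressing replicate 1 (edgeR, adjusted p = 0.0613). The angiomotin gene AMOT (-0.26) and the alpha-catenin gene CTNNA1 (-0.07), which had the highest mean CPM of the list, were not called.

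AJUBA belongs to a family of LIM proteins of junctions and focal adhesions, of which 7 were tested. Of these, 6 were lower (85.7%, against 10.6% of all genes) and 0 higher with edgeR and with DESeq2, with a median of -1.64. WTIP, a close relative of AJUBA, had 1.45 and 3.32 CPM against 30.7 and 19.7 CPM (log2 fold change -3.41, edgeR, adjusted p = 0.00121), and TRIP6 had 9.94 and 16.8 CPM against 88.3 and 52.6 CPM (-2.40, adjusted p = 0.00168). LPP (-1.64), FBLIM1 (-1.09) and ZYX (-1.04), the gene for zyxin, were nearer to the minimum. The third Ajuba-type gene, LIMD1, had 51.0 and 40.8 CPM against 43.1 and 47.3 CPM and was not called (0.02). Without control replicate 6, 4 of the 7 were called, and without overexpressing replicate 1 also 4. ZYX (-0.83 and -0.82) and FBLIM1 (-0.47 and -1.04) were the genes lost, and FBLIM1 was also lost without overexpressing replicate 3. WTIP was at -4.11 without that replicate.

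Of the cofactors and partners of TEAD, 1 of 11 tested genes was lower (9.09%, against 10.6% of all genes) and 3 were higher (27.3%, against 8.61%). They showed no common direction, with a median of 0.03, and YAP1 and WWTR1 are themselves on that list. Without control replicate 6, 0 were lower and 4 higher (median 0.36), and without control replicate 8, 3 of 12 were lower and 2 higher (median -0.20). VGLL4, a repressor that competes with YAP for TEAD, had 62.4 and 59.9 CPM against 73.4 and 59.4 CPM (log2 fold change -0.12). The higher genes were RUNX1 (7.89 and 7.07 CPM against 0.576 and 0.743), TP73 (22.2 and 22.6 CPM against 1.86 and 1.54) and VGLL2 (25 and 20 counts against 2 and 0). VGLL3 was lower, with 26 and 41 counts against 79 and 69. Without overexpressing replicate 1, VGLL2 (adjusted p = 0.0783) and VGLL3 (adjusted p = 0.194) were not called, nor was VGLL3 without control replicate 6 or VGLL2 without control replicate 8.

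Within the families of the target genes, CCN4 had 28.9 and 27.5 CPM against 41.1 and 30.8 CPM and was not called (log2 fold change -0.35). CCN6 had 20 counts in each overexpressing library and 6 in each control, CCN3 was too low to be tested, and CCN5 had 0 counts. Of the 4 CCN genes tested, 1 was lower and 0 higher with edgeR and with DESeq2, with a median of -1.45. That median was -0.23 without control replicate 6 and -2.55 with a filter of 1 CPM. Per length, CCN4 made up 71.5% and 50.5% of CCN TPM in the overexpressing libraries, 16.9% in control replicate 6 and 47.3% in control replicate 8. Of the 2 thrombospondin genes tested, THBS1 was lower, 0 were higher with either tool, and the median was -2.15, or -1.13 without control replicate 6. THBS3 had 57.7 CPM in both overexpressing libraries against 124 and 80.4 CPM (-0.82, not called, and -1.10 and called without control replicate 8), and THBS2 had 0 counts in all libraries.

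Receptors for CCN proteins and thrombospondin-1 were lower in 4 of 12 tested genes and higher in 1, with a median of -0.90. The share lower was 33.3%, against 10.6% of all genes, and the share higher was 8.33%, near the 8.61% of all genes. ITGA5, the integrin alpha-5 gene of the fibronectin receptor, had 0.926 and 2.12 CPM against 56.8 and 26.4 CPM (log2 fold change -4.79, edgeR, adjusted p = 0.000718), which was -5.47 without overexpressing replicate 3 and -4.14 without control replicate 6. Its partner ITGB1 had 139 and 150 CPM against 312 and 296 CPM (-1.08, adjusted p = 0.0013). ITGB2 (-2.45, and -3.17 without overexpressing replicate 3) and ITGA6 (-1.31) also fell. CD47, a thrombospondin-1 receptor, was higher with 138 and 110 CPM against 62.9 and 53.6 CPM (1.09, edgeR, adjusted p = 0.0031), and was not called without overexpressing replicate 1 (0.93) or control replicate 8 (0.9911). Of 13 genes of the TGF-beta pathway (ligands, latent binding proteins, receptors, SMAD genes and inducible genes), 0 were lower (with edgeR and with DESeq2) and 1 was higher, namely SKIL (1.16, and 0.75 and not called without overexpressing replicate 1), with a median of 0.06 (0.45 without control replicate 6 and -0.21 without control replicate 8). Without control replicate 6, 2 were higher, SMAD7 (1.78) being added, and without control replicate 8, 1 was lower (LTBP2, -2.07).

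Markers of other cell types were read as well. Of 9 tested trophectoderm markers, 6 were lower and 1 higher, with a median of -2.68, and TEAD4 is itself on that list. The higher marker was TFAP2A, with 30.9 and 42.8 CPM against 2.88 and 2.69 CPM (log2 fold change 3.72, edgeR, adjusted p = 0.000206), and it was called whichever library was left out. The summed level of the list was 326 and 1184 CPM in the overexpressing libraries and 15750 and 9670 CPM in the controls. KRT8 was the most abundant trophectoderm marker, with 250 and 1014 CPM against 12010 and 7489 CPM (-3.95, and -3.25 without overexpressing replicate 1 or -5.28 without overexpressing replicate 3). CDX2 and HAND1, which define the trophectoderm lineage, had 0 counts in all 4 libraries, and EOMES had 1 count in each.

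Of 18 tested fibroblast markers, 10 were lower (55.6%, against 10.6% of all genes) and 3 higher (16.7%, against 8.61%). The median was -1.54, and the summed level was 1988 and 1867 CPM against 3261 and 2716 CPM. The higher genes were PRRX1 (1.62), COL5A2 (1.08) and COL1A2 (1.08), of which only PRRX1 was called without overexpressing replicate 1 or without control replicate 8. PDGFRB (-5.49, ranging from -6.32 without overexpressing replicate 3 to -4.79 without control replicate 6), ACTA2 (-4.47, ranging from -5.09 to -3.68 in the same way) and COL6A1 (-3.49) were among the lower ones. VIM was the most abundant fibroblast marker and was not called, with 1035 and 855 CPM against 1105 and 1073 CPM. Some fibroblast matrix markers were near 0, with no more than 9 counts of COL3A1, 3 of COL5A1 and of LUM, 1 of COL6A3 and 19 of DCN in a library.

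Of 6 tested primitive endoderm markers, 2 were lower (SPARC and LAMB1, 33.3% against 10.6% of all genes), with a median of -1.20. With edgeR and with DESeq2, 0 were higher. Without control replicate 8, 4 were lower, and without control replicate 6 the median was -0.86. Their summed level was 850 and 897 CPM against 2244 and 1772 CPM, led by SPARC, and FOXA2, AFP and TTR had 0 counts. Of 7 tested pluripotent stem cell markers, 3 were lower (LIN28A, CDH1 and ESRRB, 42.9% against 10.6% of all genes), with a median of -0.31. With either tool, 0 were higher. ESRRB, which encodes an orphan nuclear receptor, differed most of these, with 1.25 and 1.78 CPM against 32.1 and 23.0 CPM (log2 fold change -4.19, edgeR, adjusted p = 0.000246). The list had 16 symbols, of which 9 were found. POU5F1 (the gene for OCT4) and SOX2 were among those not found by symbol, so they were not read here. The summed level of the 9 markers found was 1468 and 1501 CPM against 1729 and 1903 CPM, led by DNMT3B. The part of these cell type markers in the lower levels of TEAD3, TEAD4, AJUBA and the targets was not tested.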

How the data were processed

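The study's processing notes name HISAT2 2.0.4 and featureCounts 1.6.4, and its methods name Sus scrofa 11.1 as the genome. As raw integer counts, without normalization, the authors deposited a value for every gene and library, with the exon length of each gene. The strand setting and the treatment of reads with several positions are not given in the sources used here. Of 24358 identifiers, 14692 were given a symbol by a table of gene names. The ChIP-Seq libraries were not analysed here.

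From the deposited counts, groups were compared in R 4.3.3 with edgeR 4.0.16 (TMM, filterByExpr by group, quasi-likelihood test, Benjamini-Hochberg over 13250 genes). The standard error is the size of the log2 fold change divided by the square root of F. TPM was computed from counts and the deposited exon lengths, and a floor was set at 3 counts (0.120 to 0.188 CPM). The spread between replicates exceeded counting error (chi-square over its degrees of freedom 19.0 and 32.7). Alternatives were other scalings and filters, DESeq2 1.42.0, limma-voom (limma 3.58.1), glmTreat, no fold change minimum, counts without mitochondrial and the 10 most counted genes, levels without length, and each library left out in turn (the lone library of a group was then assumed to vary like the others). The test was checked on simulated counts with the same spread assumed for every gene. That check does not cover genes with a wide gap between replicates, such as CCN1. Figures were drawn with matplotlib 3.10.9.

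The 10 genes, IRF1, the genes of the lists and, for likeness, the 5 nearest genes to CCN1 and to CCN2 are named. From a list, the called genes and the most abundant ones were named first, and other list genes were picked after their values had been seen. The members and lists were chosen with earlier results of these data known. Lists overlap, and their counts are descriptions without a test. Each count is to be read beside the 10.6% of all genes tested that were called lower and the 8.61% called higher. The shares called lower were 25% for the CCN genes and 50% for the thrombospondin genes. For the TGF-beta genes 0% were lower and 7.69% higher.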

Additional observations from a re-analysis of the deposited data

How the results depend on the processing

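Over all genes tested, 1141 were higher and 1410 lower. With glmTreat, 611 were higher and 603 lower, and with no fold change minimum 1842 were higher, since the first demands more and the second less of each gene. When single libraries were left out, 756 to 1156 genes were higher and 874 to 1548 lower. Both lowest counts came without overexpressing replicate 1, and the cause was not tested. Of the 10 genes of interest, between 5 and 7 were lower with a library left out, 4 with glmTreat and 8 with no fold change minimum, and 0 were higher under any setting. WWTR1 turned to -0.0765 without overexpressing replicate 1 (range -0.08 to 0.42), and the cause was not tested. TEAD3, TEAD4, AJUBA and THBS1 kept their direction and their call under all 14 alternatives. Of the medians of 15 lists under 14 alternatives, 187 moved by less than the spread between replicates and 23 by more. Signs changed for SRF and immediate-early genes (once, 0.18 without control replicate 6), TEAD cofactors (3 settings) and TGF-beta genes (2 settings). No paired analysis was possible because the groups share no replicate numbers. The floor of 3 counts corresponds to at most 0.188 CPM.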

Other observations

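Among the 9130 tested genes with a symbol and a mean of at least 5 CPM, the 10 that differed most between the controls were FOS, EGR1, EGR2, JUN, DUSP6, CCN1, NR4A1, DUSP1, CACNG7 and ADGRG6. They were chosen after the values had been seen. All of these but ADGRG6 were higher in control replicate 6 than in control replicate 8. DUSP6, which encodes a phosphatase of ERK, had 68 and 133 counts in the overexpressing libraries, 262 in control replicate 6 and 14 in control replicate 8. DUSP1 had 570 and 486 counts against 1334 and 224. CCN1 is thus among the genes with the widest gap between the controls, together with genes of the immediate-early class.

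The 10 genes that differed most between the overexpressing libraries were KRT18, ISYNA1, PTH1R, CSRNP1, KCNK5, KRT8, SELENOW, C8orf58, DENND3 and TERT. KRT18 had 13.8 and 88.6 CPM in replicates 1 and 3 and 3546 and 2035 CPM in the controls, and ISYNA1 had 3.90 and 22.0 CPM against 350 and 330 CPM. For both keratin genes, as for AJUBA, CCN2 and TEAD4, overexpressing replicate 1 was the lower one. Of all genes tested, 7.58% were at least 2-fold apart between the controls and 5.72% between the overexpressing libraries.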
